A study of Mus musculus with 7 samples.

Results

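Cathepsins are the proteases of endosomes and lysosomes, and 10 of their genes, Ctsa, Ctsb, Ctsc, Ctsd, Ctse, Ctsh, Ctsk, Ctsl, Ctss and Ctsz, were followed here in sorted splenic dendritic cells. The genes were chosen by symbol from the array annotation, with the probe set of highest mean kept for each symbol. A named probe set was found for 9 of the 10, out of 19505 genes in all, and Ctsd was not analysed here. Each of the 9 was read by 1 probe set.

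The family is grouped by the residue that cuts the peptide bond. Ctsb, Ctsc, Ctsh, Ctsk, Ctsl, Ctss and Ctsz encode cysteine proteases of the papain fold, Ctse an aspartic protease and Ctsa a serine carboxypeptidase. All are made as inactive precursors, most are carried to lysosomes by mannose 6-phosphate receptors, and cystatins hold the cysteine proteases in check. In antigen-presenting cells they cut internalised proteins into peptides and trim the invariant chain from MHC class II, a step for which cathepsin S is the best known protease in dendritic cells. Type 1 conventional dendritic cells (cDC1) present internalised antigen to CD8 T cells (cross-presentation), for which mild rather than exhaustive endosomal proteolysis is known to matter.

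The tested cells were 4 arrays of splenic cDC1 from CD11c-Cre; OPA1 flox mice (KO), in which a Cre recombinase under the CD11c promoter, active in dendritic cells and in some macrophages and lymphocytes, acts on a floxed Opa1 gene. They were set against 3 arrays of splenic cDC1 from WT mice. All mice were of strain C57BL/6 and carried a B16-OVA tumor, a mouse melanoma line that expresses ovalbumin. Ages are not given in the sources used here, nor is whether the WT mice carried a floxed allele or the Cre. Since no label ties an array to a mouse, the replicate spread behind each p-value may be technical. OPA1, a dynamin-related GTPase, fuses inner mitochondrial membranes.

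Values are log2 RMA signals, so a difference of 1 is a factor of 2 and a KO minus WT difference below 0 means a lower level in KO. The median of all rows lay between 7.84 and 7.96 on the 7 arrays, and the number of arrays limits the precision. Opa1, the targeted gene, read 7.70, 7.10, 6.85 and 8.24 on KO 1 to 4, against 8.14, 8.80 and 9.15 on WT 1 to 3. The groups overlapped, since KO 4 lay above the array labelled WT 1, and the exact two-sided permutation p for Opa1 was 0.114, where 0.0571 is the smallest this design allows. The positions of its probes relative to the deleted part were not analysed here.

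Arrays labelled WT 1 and WT 2 stood farthest from the KO arrays in cDC1 and melanocyte markers. The mean of 12 cDC1 markers lay between 11.92 and 12.02 in KO, against 11.08 on WT 1, 9.37 on WT 2 and 11.88 on WT 3. That of 12 melanocyte lineage markers lay between 7.24 and 8.0 in KO, against 11.62, 11.95 and 9.11 on WT 1 to 3. For 8 cDC2 markers the KO means were 7.99 to 8.55 and the WT means 8.16, 10.41 and 8.75, and for 11 monocyte and macrophage markers they were 8.55 to 9.05 in KO and 9.03, 10.53 and 9.27 on WT 1 to 3. The array labelled WT 2 was thus the lowest in cDC1 markers and the highest in the other 3 lists. WT 1 lay within the KO range for the cDC2 and the monocyte and macrophage lists. WT 3 lay outside the KO range in each of these lists, by little for cDC1 markers, at 11.88 against 11.92. The median of the negative control probe sets, a measure of background, was 6.49 to 6.88 on KO arrays and 6.19 to 6.71 on WT arrays, and it was exceeded on all 7 arrays by 12 of the 12 cDC1, 7 of the 12 melanocyte, 6 of the 8 cDC2 and 10 of the 11 monocyte and macrophage markers. Results are therefore given by array and also with WT arrays left out. In bulk arrays fewer cells of a type and less RNA per cell cannot be told apart.

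No cathepsin passed the threshold between KO and WT. In limma fitted on all 19505 genes the smallest Benjamini-Hochberg adjusted p among the 9 was 0.227 for Ctsc and the largest 0.688 for Ctsh, where 0 of all genes (0%) passed. The KO mean was below the WT mean for 7 of the 9 and above it for Ctse and Ctss, against 40.1% of all genes with a lower KO mean. The median difference of the 9 was -0.15, against 0.06 over all genes. At an unadjusted p under 0.05 there were 3 cathepsins, Ctsc, Ctsl and Ctsk, all lower in KO, against 10.6% of all genes lower and 8.98% higher. Over all genes that was 2068 lower and 1752 higher, and after centring each array on its median 1814 lower (9.30%) and 2469 higher (12.7%), a setting in which the same direction held for all 9 cathepsins.

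Ctsl encodes cathepsin L, an endopeptidase that degrades the invariant chain in thymic epithelium. It read 7.84, 7.86, 7.77 and 8.30 on KO 1 to 4, against 8.66, 9.76 and 8.13 on WT 1 to 3. The array labelled WT 2 was the highest and KO 4 lay above WT 3, so the groups overlapped. The means were 7.94 ± 0.24 in KO (SD, n = 4) and 8.85 ± 0.83 in WT (SD, n = 3), a difference of -0.91 with a standard error of 0.35 (limma, adjusted p = 0.232) and an unadjusted 95% interval of -1.71 to -0.10. On the linear scale the KO level was 0.533 times the WT level.

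Ctsk, cathepsin K, is the collagen-degrading protease of osteoclasts. Its values were 6.67, 7.15, 6.34 and 6.81 on KO 1 to 4, against 7.40, 8.26 and 6.91 on WT 1 to 3. Again WT 2 was the highest array, and KO 2 lay above WT 3. The difference was -0.78 with a standard error of 0.32 (limma, adjusted p = 0.245). Ctsk exceeded the negative control median on only 4 of the 7 arrays, KO 2 and WT 1 to 3, so its values lie near background. On KO 1, KO 3 and KO 4 it lay below that median, which was 6.88, 6.67 and 6.88 there. On WT 1 to 3 that median was 6.19, 6.26 and 6.71.

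Ctsc, cathepsin C or dipeptidyl peptidase I, removes dipeptides and activates the serine proteases of cytotoxic and myeloid granules. It read 10.30, 10.69, 10.58 and 10.68 on KO 1 to 4, against 10.80, 11.53 and 10.91 on WT 1 to 3. Every KO array lay below every WT array, WT 3 included. The means were 10.56 ± 0.18 in KO (SD, n = 4) and 11.08 ± 0.39 in WT (SD, n = 3), a difference of -0.52 with a standard error of 0.19 and an interval of -0.96 to -0.08, which is 0.697 times the WT level. Values of this kind without overlap between groups were found lower in KO for 3 of the 9 cathepsins, Ctsc, Ctsa and Ctsz, against 5.92% of all genes, and higher in KO for 0, against 7.85%.

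Ctsa encodes cathepsin A, the protective protein that stabilises lysosomal neuraminidase and beta-galactosidase. It read 9.54, 9.76, 9.75 and 9.57 on KO 1 to 4, against 9.83, 11.05 and 9.77 on WT 1 to 3. The array labelled WT 2 was far above all others, while WT 3 lay 0.12 and WT 1 0.18 above the KO mean. The difference was -0.57 with a standard error of 0.29 (limma, adjusted p = 0.307).

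The promoters of these 4 genes, which had the lowest KO minus WT differences, are shown to let their sequences be set side by side. RefSeq promoter entries (build GRCm38.p6) were matched for 6 of the 9 measured cathepsins, Ctsa, Ctsc, Ctsk, Ctsl, Ctss and Ctsz. Each line gives the 250 bases before the annotated start, 5′ to 3′ on the gene's strand. Capitals mark CACGTG, an E-box read by the lysosomal gene regulator TFEB and its relative MITF, and GAGGAA or its reverse complement TTCCTC, a core found in sites of the myeloid factor PU.1. Ctsl lies at chr13:64370521-64370770 on the minus strand, Ctsk at chr3:95498960-95499209, Ctsc at chr7:88277835-88278084 and the window of Ctsa that holds the E-box at chr2:164833523-164833772, these 3 on the plus strand.
Ctsl: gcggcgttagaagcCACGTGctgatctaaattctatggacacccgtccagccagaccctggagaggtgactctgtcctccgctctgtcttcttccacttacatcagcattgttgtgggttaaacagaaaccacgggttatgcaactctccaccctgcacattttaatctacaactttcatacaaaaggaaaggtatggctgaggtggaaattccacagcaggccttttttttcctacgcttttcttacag
Ctsk: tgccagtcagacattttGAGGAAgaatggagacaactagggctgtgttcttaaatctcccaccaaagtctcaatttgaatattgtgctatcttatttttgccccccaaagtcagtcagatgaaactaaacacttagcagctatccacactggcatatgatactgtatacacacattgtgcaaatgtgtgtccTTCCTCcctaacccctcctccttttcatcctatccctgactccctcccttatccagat
Ctsc: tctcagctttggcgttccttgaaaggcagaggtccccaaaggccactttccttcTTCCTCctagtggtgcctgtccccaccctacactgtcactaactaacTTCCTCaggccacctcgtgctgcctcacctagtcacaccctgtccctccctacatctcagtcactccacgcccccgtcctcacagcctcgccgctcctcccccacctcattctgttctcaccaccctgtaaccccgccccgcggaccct
Ctsa: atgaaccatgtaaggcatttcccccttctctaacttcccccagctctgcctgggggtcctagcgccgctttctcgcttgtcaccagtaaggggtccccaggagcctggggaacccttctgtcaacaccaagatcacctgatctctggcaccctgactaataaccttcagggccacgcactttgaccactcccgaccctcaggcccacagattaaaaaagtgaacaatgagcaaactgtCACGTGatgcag

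CACGTG, which reads the same on both strands, was present in the windows of Ctsl, where it began 236 bases before the start, and Ctsa, where it began 12 bases before. These are 2 of the 6 cathepsins with an entry, counted by gene over 7 windows. Counted by window, 6.02% of all 32851 windows hold it. A second annotated start of Ctsa had neither motif in its window. GAGGAA, searched on both strands, was present in Ctsk, Ctsc and Ctss and in 23.3% of all windows. The matches of the motifs do not overlap. A match describes the letters of a window only.

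The other cysteine cathepsins had smaller differences. Ctsz, cathepsin Z or X, a carboxypeptidase, read 12.22, 12.27, 12.27 and 12.26 on KO 1 to 4, against 12.28, 12.57 and 12.37 on WT 1 to 3. The KO arrays spanned 0.05 and all lay below every WT array, although WT 1 stood only 0.02 above the KO mean. The difference was -0.15 with a standard error of 0.10 (limma, adjusted p = 0.400) and an interval of -0.39 to 0.08.

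Ctsb, cathepsin B, an endopeptidase and dipeptidyl carboxypeptidase, read 12.27, 12.32, 12.39 and 12.36 on KO 1 to 4, against 12.25, 12.79 and 12.36 on WT 1 to 3. Ctsh, cathepsin H, an aminopeptidase, read 11.87, 11.83, 11.81 and 11.93 on KO 1 to 4, against 11.69, 12.30 and 11.91 on WT 1 to 3. In both genes WT 2 was the highest array and WT 1 the lowest, with WT 3 among the KO arrays. The differences were -0.14 for Ctsb, with an interval of -0.46 to 0.19 (limma, adjusted p = 0.583), and -0.10 for Ctsh, with an interval of -0.44 to 0.23 (limma, adjusted p = 0.688).

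Ctss, cathepsin S, the protease best known for the last steps of invariant chain removal, read 11.73, 11.92, 11.78 and 11.74 on KO 1 to 4, against 11.43, 11.79 and 11.79 on WT 1 to 3. The array labelled WT 1 was the lowest, and WT 2 and WT 3 lay within the KO range. The means were 11.79 ± 0.09 in KO (SD, n = 4) and 11.67 ± 0.21 in WT (SD, n = 3), a difference of 0.12 with a standard error of 0.12 (limma, adjusted p = 0.566). The interval was -0.16 to 0.41.

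Ctse, cathepsin E, an aspartic protease of endosomes in immune and gastric cells, had the largest positive difference of the 9. It read 8.11, 9.01, 9.10 and 8.28 on KO 1 to 4, against 8.34, 7.53 and 8.58 on WT 1 to 3. The array labelled WT 2 was the lowest here, and KO 1 and KO 4 lay below WT 3. The difference was 0.47 with a standard error of 0.33 (limma, adjusted p = 0.415), within a KO spread of 0.50 and a WT spread of 0.55 (SD, n = 4 and 3).

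**Figure D1:**
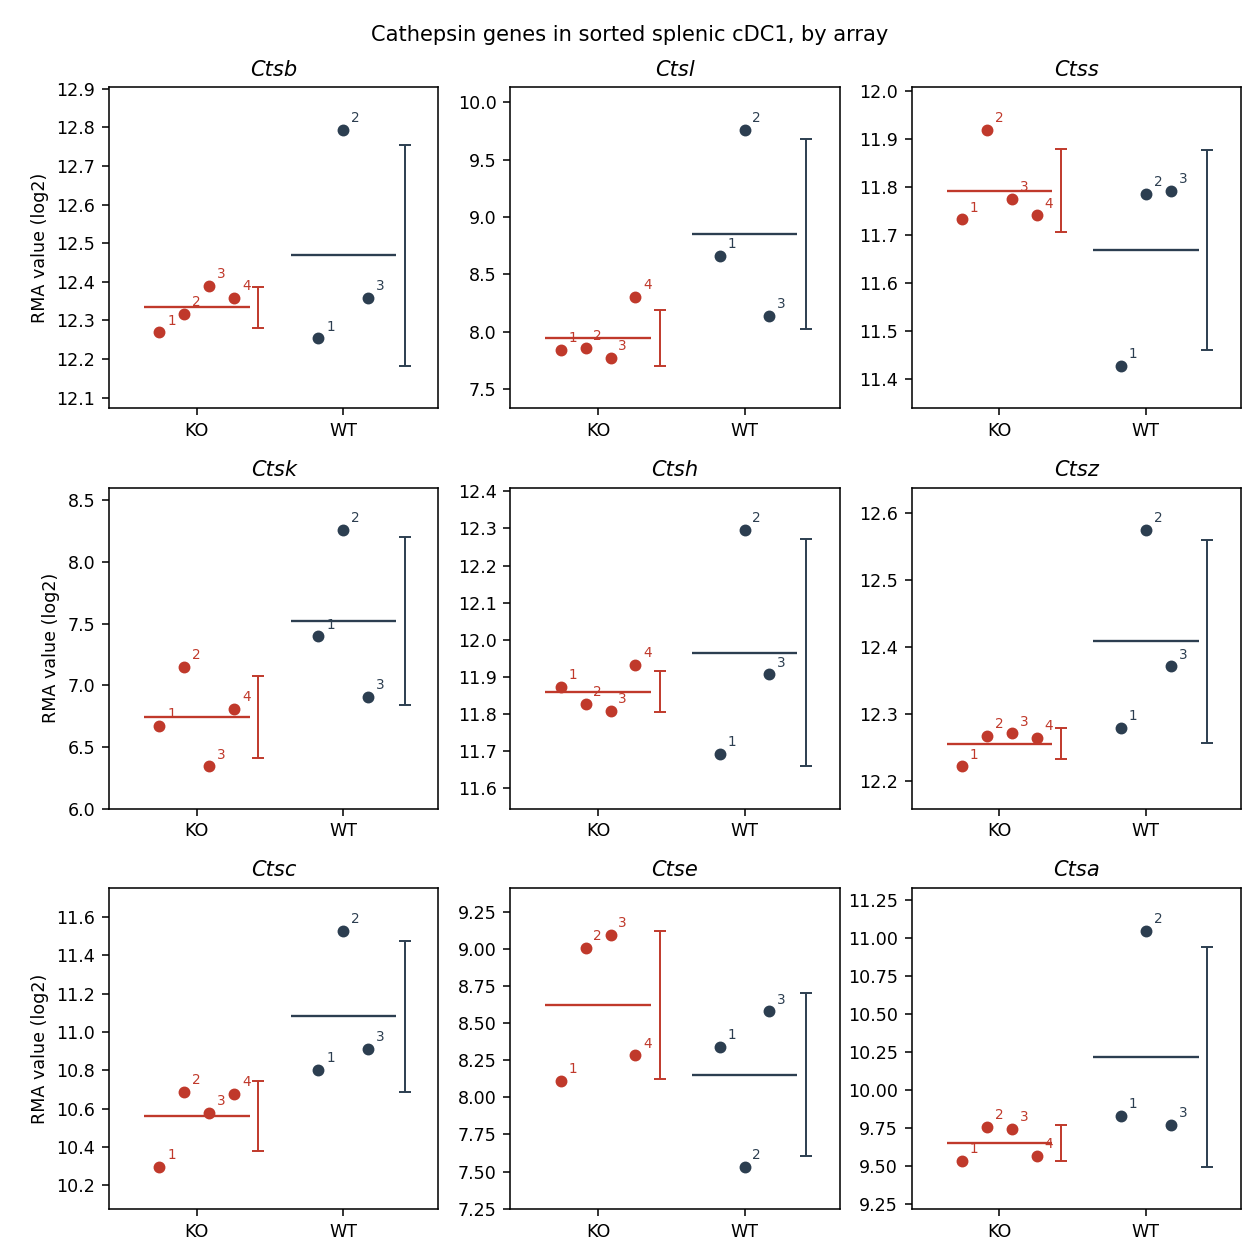
RMA value (log2) of the 9 measured cathepsin genes, 1 panel each with its own axis, on the 4 KO and 3 WT arrays; points carry the replicate number, horizontal lines are group means and bars beside them ± SD. WT 2 is the highest array in 7 panels, as for Ctsl at 9.76, and the lowest for Ctse at 7.53.

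Across the family the WT arrays varied more than the KO arrays. The WT SD exceeded the KO SD for 9 of the 9 cathepsins, against 66.7% of all genes, and the median SD was 0.12 in KO and 0.39 in WT, against 0.14 in KO and 0.20 in WT over all genes. The highest of the 7 values was on WT 2 for 7 of the 9 cathepsins, all but Ctse and Ctss, against 20.6% of all genes. In those 7 WT 2 lay above every KO array, against 28.1% of all genes, and in Ctse it lay below every KO array, against 42.1%. By array, the median cathepsin stood 0.02 above its KO mean on WT 1, 0.46 above it on WT 2 and 0.12 above it on WT 3. Over all genes these medians were -0.03, -0.09 and -0.02. WT 3 lay above every KO array for Ctsa, Ctsc and Ctsz, against 18.1% of all genes, and below every KO array for 0 of the 9, against 24.2%. On WT 1, 5 cathepsins, Ctsa, Ctsc, Ctsk, Ctsl and Ctsz, lay above every KO array and 3, Ctsb, Ctsh and Ctss, below every KO array, against 28.3% and 33.6% of all genes.

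Without WT 2 in the fit the differences were smaller for 8 of the 9 cathepsins, all but Ctss. Ctsl differed by -0.45, Ctsk by -0.41, Ctsc by -0.30 and Ctsa by -0.15, and Ctse by 0.16. The differences of Ctsb and Ctsh then had the opposite sign, at 0.028 and 0.061. Of the 9, 4 had a higher KO mean. In limma 0 genes passed, and at an unadjusted p under 0.05 there were 0 cathepsins, against 5.10% of all genes lower and 3.19% higher in KO.

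Without the array labelled WT 3, which leaves WT 1 and WT 2, Ctsl differed by -1.27 (limma, adjusted p = 0.0106) and Ctsk by -1.08 (limma, adjusted p = 0.0173), and both passed. These were 2 of the 9 cathepsins, against 13.8% of all genes called lower and 11.4% called higher in that fit. Ctsc, at -0.60, and Ctsa, at -0.79, did not pass (limma, adjusted p = 0.0604 and 0.0703). Ctsl and Ctsk also passed with array weights (limma, adjusted p = 0.0273 and 0.0435), where WT 3 had the lowest weight, 0.241, and 12.6% of all genes were called lower and 10.3% higher. Without WT 1 and WT 2 together, which rests on WT 3 alone and assumes that it varies like the KO arrays, 8 cathepsins had a lower KO mean, against 44.7% of all genes. At an unadjusted p under 0.05 there were 0, against 3.05% of all genes lower and 2.87% higher. On WT 3 the melanocyte list stood 1.43, the monocyte and macrophage list 0.50 and the cDC2 list 0.41 above their KO means, and their part in these values was not tested. Ctsc then differed by -0.35 with a standard error of 0.18, and the other 8 by between -0.19 and 0.04. With any 1 WT array left out, the difference of Ctsc lay between -0.66, without WT 1, and -0.30, without WT 2.

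**Figure D2:**
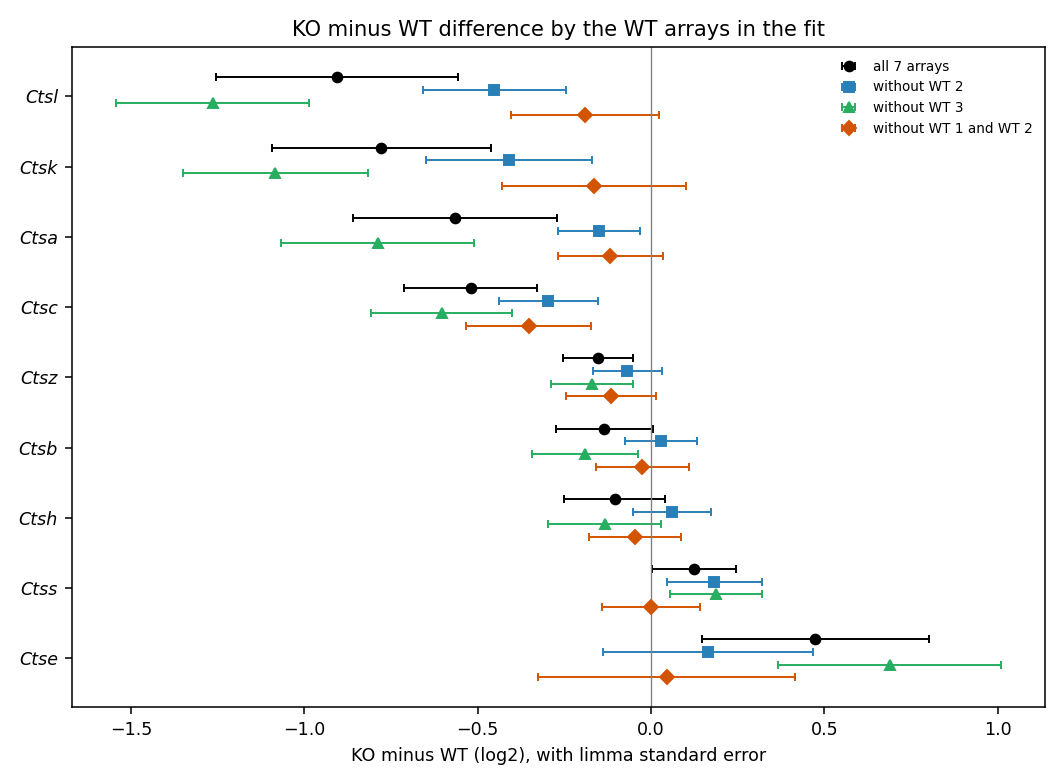
KO minus WT difference (log2, with its limma standard error) of the 9 cathepsins, fitted on all 7 arrays, without WT 2, without WT 3, and without WT 1 and WT 2. Ctsl lies at -0.91 with all arrays, -0.45 without WT 2, -1.27 without WT 3 and -0.19 without WT 1 and WT 2; Ctsb, Ctsh and Ctss lie between -0.19 and 0.19 in all 4 fits.

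Profiles were also compared by distance, without scaling each gene to its own spread, so genes that vary little lie close together. After each gene was centred on its mean over the 7 arrays, Ctsb and Ctsh were the closest pair of cathepsins, with a root mean square distance of 0.063 log2, followed by Ctsb and Ctsz at 0.078. Ctse and Ctsl were the farthest apart, at 1.09. The root mean square of the centred values was 0.17 for Ctsb, 0.18 for Ctsh, 0.11 for Ctsz and 0.14 for Ctss. For Ctsc it was 0.35 and for Ctsl 0.65. The gene nearest to Ctsl was Nupr1, a stress-induced chromatin protein, at 0.098. Nupr1 read 8.99, 9.04, 8.81 and 9.47 on KO 1 to 4, against 9.71, 11.06 and 9.12 on WT 1 to 3. Nearest to Ctsc was Atp6v1c1, a subunit of the proton pump that acidifies lysosomes, at 0.064. It read 9.18, 9.58, 9.53 and 9.53 on KO 1 to 4, against 9.72, 10.26 and 9.82 on WT 1 to 3. The gene nearest to Ctss was Vps53, a subunit of a Golgi tethering complex, at 0.029. For the other members the nearest genes were Nxpe5 (Ctsa), Heatr3 (Ctsb), Unc119b (Ctse), Rmrp (Ctsh), Hs2st1 (Ctsk) and Rad23b (Ctsz). These distances were ranked over all named genes and 7 arrays, of which WT 1 and WT 2 stood farthest from KO in cDC1 and melanocyte markers.

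The other genes of the pathway were counted from lists that were written with earlier results of these data known. In limma 0 members of these 7 lists passed with all arrays, where 0 of all genes (0%) passed, so this count describes no list. The lists were not counted in the fits without WT 3 or with array weights, in which genes passed. Of 13 other cathepsin genes, most of them placental in mice, 13 were measured, 11 with a higher and 2 with a lower KO mean, with a median difference of 0.17, and of 0.08 without WT 1 and WT 2. At an unadjusted p under 0.05 there were 2, Ctsr and Ctsm, higher in KO by 0.28 and 0.27, against 8.98% of all genes higher. Only 5 of the 13 exceeded the negative control median on all 7 arrays, and neither Ctsr nor Ctsm was among them. Ctsw, cathepsin W of cytotoxic lymphocytes, read 8.97, 8.26, 8.64 and 8.89 on KO 1 to 4, against 7.93, 8.06 and 8.90 on WT 1 to 3. The mean of 6 T and NK cell markers read 8.29, 7.35, 8.35 and 8.71 on the KO arrays and 7.22, 7.48 and 8.74 on the WT arrays. Their part in the Ctsw values was not tested.

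Of a list of cystatins and other protease inhibitors, 22 of 24 were measured, 9 with a lower and 13 with a higher KO mean (median difference 0.07). Not all genes of this list, Serpinb8 and Spink1 among them, are known inhibitors of cathepsins. Without WT 1 and WT 2 there were 16 lower and 6 higher (median -0.09). At an unadjusted p under 0.05 there were 2 lower and 5 higher of the 22, against 10.6% of all genes lower and 8.98% higher. Cstb, cystatin B, an intracellular inhibitor of cysteine cathepsins, read 10.74, 10.72, 10.74 and 11.08 on KO 1 to 4, against 11.48, 11.97 and 10.98 on WT 1 to 3. As for Ctsl, WT 2 was the highest array, followed by WT 1 and KO 4. Ctla2b, whose product resembles a cathepsin propeptide, read 10.12, 9.90, 10.72 and 10.22 on KO 1 to 4, against 7.65, 7.31 and 10.23 on WT 1 to 3. Serpinb8 read 8.78, 9.18, 9.05 and 9.10 on KO 1 to 4, against 6.97, 6.55 and 9.18 on WT 1 to 3. In both genes WT 1 and WT 2 were low and WT 3 lay within the KO range. Stfa3, a stefin, did not exceed the negative control median on any array.

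Genes of lysosomal enzyme sorting and maturation had 17 of 18 members measured, 7 with a lower and 10 with a higher KO mean (median difference 0.03), and without WT 1 and WT 2 10 lower and 7 higher (median -0.02). At an unadjusted p under 0.05 there were 5 lower and 1 higher of the 17, against 10.6% of all genes lower and 8.98% higher. Lgmn, legumain, the asparaginyl endopeptidase that processes several cathepsins, read 12.15, 12.13, 12.37 and 12.34 on KO 1 to 4, against 13.09, 13.54 and 12.29 on WT 1 to 3. Sort1, the sorting receptor sortilin, differed by -0.91, Gga2, a coat adaptor of mannose 6-phosphate receptors, by -0.90 and Gnptab, which makes the mannose 6-phosphate tag, by -0.43. In these 4 genes WT 1 and WT 2 were high and WT 3 stood between -0.08 and 0.07 from the KO mean. Igf2r, the large mannose 6-phosphate receptor, had another pattern. It read 9.30, 8.66, 9.09 and 8.88 on KO 1 to 4, against 9.46, 9.45 and 9.48 on WT 1 to 3, so that the WT arrays spanned 0.03 and lay above every KO array. The difference was -0.48 with a standard error of 0.15 (limma, adjusted p = 0.223). Groups without overlap were found lower in KO for 1 of the 17, against 5.92% of all genes, and higher for 0, against 7.85%. Sorl1, another sorting receptor, differed by 0.54.

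Partners in antigen processing and, from a separate list, partners of cathepsin A were named from those of their list with the smallest unadjusted p. In H2-Oa, Rab27a and Neu1, WT 1 and WT 2 lay outside the KO range and WT 3 within it. Of 17 antigen processing genes 15 were measured, 5 with a lower and 10 with a higher KO mean (median difference 0.07). Of the 15, 1 was lower and 2 were higher at an unadjusted p under 0.05, against 10.6% and 8.98% of all genes. Without WT 1 and WT 2 there were 12 lower and 3 higher (median -0.06). H2-Oa, a chain of the class II modulator H2-O, read 12.77, 12.93, 12.95 and 12.68 on KO 1 to 4, against 11.72, 11.72 and 12.85 on WT 1 to 3. Rab27a, a GTPase of secretory lysosomes and melanosomes, read 9.36, 9.69, 9.60 and 9.12 on KO 1 to 4, against 11.11, 11.54 and 9.61 on WT 1 to 3. Ifi30, the lysosomal thiol reductase, differed by -0.21 (limma, adjusted p = 0.294). Its groups did not overlap, though WT 3, at 12.78, lay next to KO 4, at 12.77. Such values were found lower in KO for 2 of the 15, against 5.92% of all genes, and higher for 0, against 7.85%. Of the 3 cathepsin A partners 2 were measured, 1 with a lower and 1 with a higher KO mean (median difference -0.34). Without WT 1 and WT 2 there were 2 lower and 0 higher (median -0.08). At an unadjusted p under 0.05, 1 was lower and 0 were higher, against 10.6% and 8.98% of all genes. Neu1, the neuraminidase held by cathepsin A, read 8.86, 9.43, 9.38 and 9.44 on KO 1 to 4, against 10.23, 10.66 and 9.35 on WT 1 to 3, and Galns differed by 0.13.

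Among 8 granule proteases that cathepsin C activates, all measured, 2 had a lower and 6 a higher KO mean (median difference 0.13), and without WT 1 and WT 2 5 had a lower and 3 a higher one (median -0.04). Gzmb, granzyme B, read 7.27, 7.20, 7.16 and 7.19 on KO 1 to 4, against 7.78, 8.58 and 7.12 on WT 1 to 3, and Gzmk differed by -0.58. Gzmk exceeded the negative control median on 2 arrays. Of the 8, 1 was lower and 0 were higher at an unadjusted p under 0.05, against 10.6% and 8.98% of all genes. Of 11 regulators of lysosomal and class II genes 6 had a lower and 5 a higher KO mean (median difference -0.03), and without WT 1 and WT 2 5 had a lower and 6 a higher one (median 0.02). Mitf, a relative of TFEB that is also a melanocyte regulator, read 8.74, 8.27, 8.26 and 8.02 on KO 1 to 4, against 12.42, 12.68 and 9.25 on WT 1 to 3. Ciita, the class II transactivator, read 11.67, 11.58, 11.70 and 11.64 on KO 1 to 4, against 10.66, 10.48 and 11.46 on WT 1 to 3. Of the 11 regulators, 2 were lower and 1 was higher at an unadjusted p under 0.05, against the same shares of all genes. Groups without overlap were found lower and higher in KO for 2 and 2 of the 11 regulators and 1 and 1 of the 8 granule proteases. For the 22 inhibitors these counts were 2 and 3, for the 13 other cathepsins 0 and 1 and for the 2 cathepsin A partners 0 and 0. Over all genes the shares were 5.92% lower and 7.85% higher. The part of cell type composition in all of these values was not tested.

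**Figure D3:**
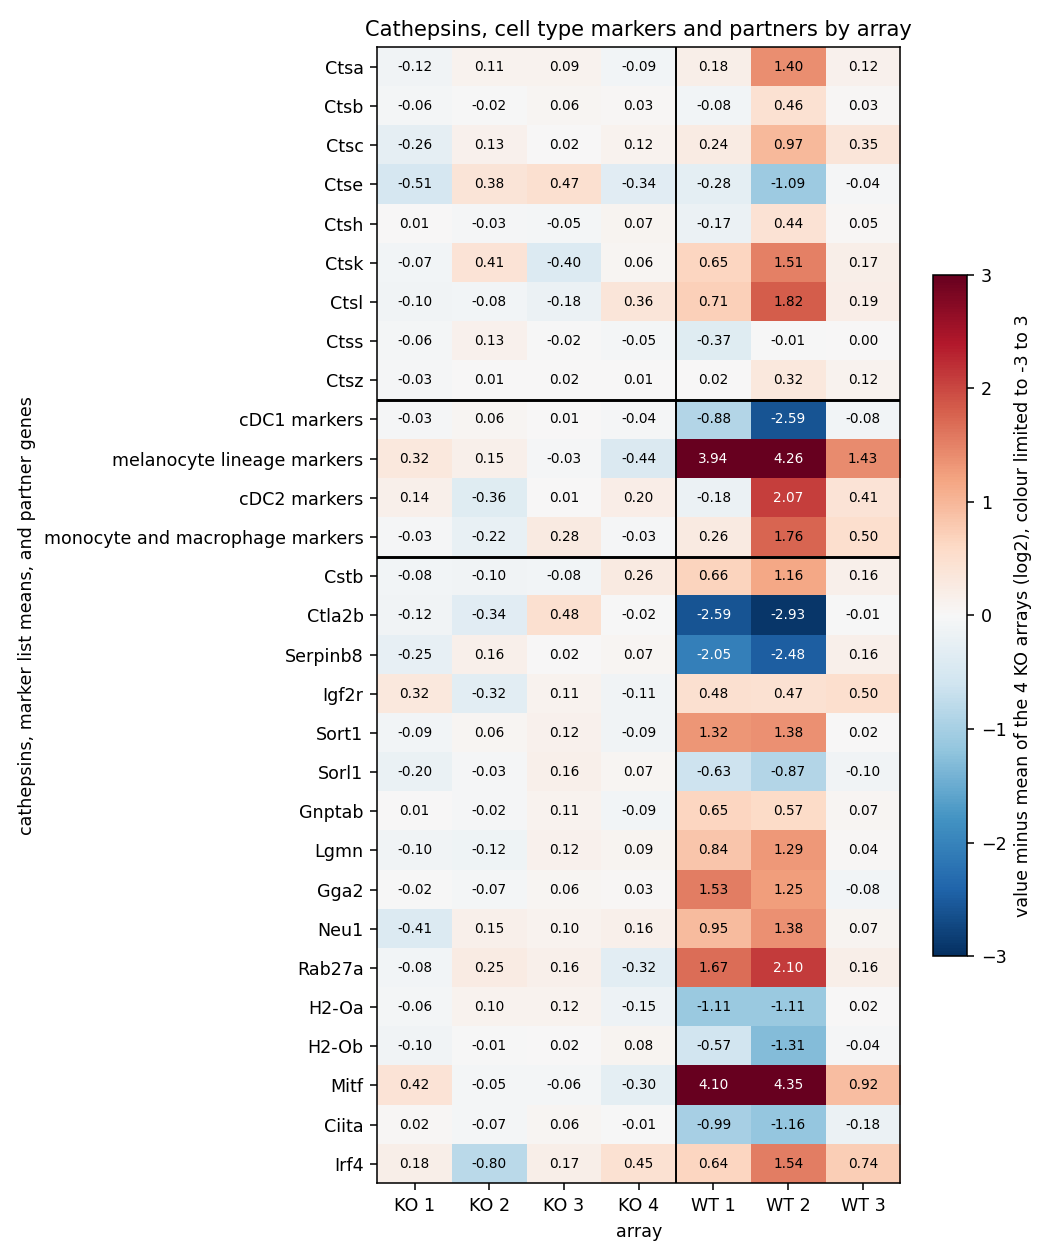
Log2 value minus the mean of the 4 KO arrays for the 9 cathepsins (top block), the means of 4 marker lists (middle) and 16 partner genes at an unadjusted p under 0.05 that exceeded the negative control median on all arrays (bottom), with KO arrays left and WT arrays right. On WT 2 Ctsl stands at 1.82, Ctsk at 1.51 and Ctsa at 1.40, beside 4.27 for the melanocyte, 2.07 for the cDC2, 1.76 for the monocyte and macrophage and -2.59 for the cDC1 markers. On WT 1 Ctsl stands at 0.71, Ctsk at 0.65 and Lgmn at 0.84.

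The marker lists and the cathepsins can be set side by side as differences from the KO mean (log2). On WT 1 and WT 2 the melanocyte list stood at 3.94 and 4.27, the monocyte and macrophage list at 0.26 and 1.76, the cDC2 list at -0.18 and 2.07 and the cDC1 list at -0.88 and -2.59. On the same arrays Ctsl stood at 0.71 and 1.82, Ctsk at 0.65 and 1.51, Ctsa at 0.18 and 1.40 and Ctsc at 0.24 and 0.97. Ctsb, Ctsh and Ctsz stood between -0.17 and 0.02 on WT 1 and between 0.32 and 0.46 on WT 2. Ctse stood at -0.28 and -1.09 and Ctss at -0.37 and -0.01. The cathepsins were not compared with single marker lists by a test, and the part of these cells in the cathepsin values was not tested.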

How the data were processed

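Type 1 conventional dendritic cells sorted from spleen were profiled on Affymetrix whole-transcript arrays, 4 KO and 3 WT, grouped by the sample titles. The authors deposited 1 table of log2 values for 28846 probe sets, summarised by RMA (Affymetrix Expression Console 1.1, as named in the submitters' processing notes); the log2 scale was read from the values (3.68 to 14.28). RMA background correction and median polish understate differences of dim probe sets. The set of arrays that RMA normalized jointly is not stated in the labels.

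Of 22206 transcript probe sets, 19572 had 1 symbol in the platform annotation, 0 had several and 2634 had none. The probe set with the highest mean was kept per symbol, which left 19505 genes. limma 3.58.1 in R 4.3.3 gave the KO minus WT differences (no covariate, Benjamini-Hochberg over all genes, threshold 0.05); the scripts were tested on simulated data. The members and the 7 pathway and 11 marker lists were chosen with earlier results of these data known. All cathepsins, up to 6 members of a pathway list by unadjusted p, up to 3 per marker list, and the 2 nearest profiles were eligible to be named. Alternatives were leaving out arrays, the replicate number as a block, 2 scalings, a dim filter at 8.09, other variance models, array weights, every probe set and a minimum difference of 1. Same-numbered arrays were not paired: their deviations correlated at -0.038, 0.046 and -0.017 across genes.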

Additional observations from a re-analysis of the deposited data

Results flagged for a closer look

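Ctsz on KO 1, at 12.22, was the 1 value far from the rest of its group: the other 3 KO arrays lay between 12.26 and 12.27, so that 0.851 of the KO range separated it from the nearest, above Dixon's critical value for 4 samples. The whole KO range was 0.05. Of 10 genes examined in this way, the 9 cathepsins and Opa1, chance flags about 1 in 20 groups.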

How the results depend on the processing

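Leaving out 1 array at a time, the number of genes called ranged from 0 to 4931 and that of cathepsins called from 0 to 2, with both upper values without WT 3 (Ctsl -1.27 and Ctsk -1.08). Array weights called 4458 genes and 2 cathepsins (Ctsl -0.92 and Ctsk -0.84); the cause was not tested. All other alternatives with more than 1 WT array called 0 cathepsins and 0 of all genes. The number of cathepsins with a higher KO mean ranged from 2 to 4 when 1 array was left out, with 4 without WT 2, and was 1 without WT 1 and WT 2. The sign turned for Ctsb (0.028) and Ctsh (0.061) without WT 2, for Ctsh with array weights (0.018) and for Ctss without WT 1 and WT 2 (-0.00063). In 126 of 134 refits of a single cathepsin, direction and side of the threshold were those of the fit on all arrays. This count includes refits that could not differ. The trended and robust variance, the dim filter and every probe set left each difference unchanged, and where 0 of all genes passed no cathepsin passed. The median difference of the cathepsins stayed between -0.24 and -0.069 when 1 array was left out, and Opa1 between -1.50 and -0.996. With the replicate number as a block 0 genes and 0 cathepsins were called and the median was -0.15, against -0.15 without it; it changed no other call. Ctsk was not measured under the dim filter. Negative controls limit what several genes can show: Ctsk and Ctse exceeded the 95th percentile of the controls on 0 arrays, Ctsl on 1 and Ctsa on 3. Among other genes named here, Opa1, Ctsw, Serpinb8 and Gzmb exceeded it on 0 arrays. Mitf, Rab27a, Neu1, Gga2, Igf2r and Sorl1 exceeded it on 2.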

Other observations

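Markers of the remaining cell types were read in the same way. The mean of 6 plasmacytoid dendritic cell markers lay between 9.38 and 9.66 in KO, against 9.06 to 9.91 in WT. B cell markers (5 measured) averaged 7.69 to 8.06 in KO, against 7.44 to 8.04 in WT, and neutrophil markers (6 measured) 7.31 to 7.94 in KO, against 6.99 to 7.70 in WT. Fibroblast markers (5 measured) averaged 7.36 to 7.58 in KO, against 7.36 to 7.63 in WT, and endothelial markers (5 measured) 7.34 to 7.67 in KO, against 7.22 to 7.49 in WT. Osteoclast markers (6 measured), listed because cathepsin K is abundant in those cells, averaged 8.23 to 8.48 in KO, against 7.40 to 8.25 in WT.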
